A study of Mus musculus with 18 samples.

Results

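Interferon-stimulated genes are the genes that cells switch on when an interferon binds its receptor. The 36 genes described here were taken by symbol from the deposited count table of a mouse study, and each had exactly 1 of its 54354 rows. They were followed across the 10 libraries of the serine-free diets. The SF_HFD group (serine-free high fat diet) and the SF_CD group (serine-free control diet) had 5 libraries each. All were labelled as tumor cells of the colon with a wild type genotype, and the sources used here give no strain, sex or age. The RNA came from organoids per the labels' extraction protocol, whereas the design text of the series describes sorted live cells of colons or colon tumors. The comparison sets a high fat against a control diet where both diets lack serine. The labels do not say that libraries of a group came from separate animals, so the spread that p-values rest on is that among libraries and may be technical.

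Interferons reach neighbouring cells as secreted ligands, and their receptors signal through JAK kinases and STAT transcription factors. Type I and type III interferons drive a complex that holds STAT2 and IRF9 and binds interferon-stimulated response elements (ISRE) in promoters. Interferon gamma acts through gamma-activated sites (GAS). The induced proteins sense foreign nucleic acid, block viral replication or limit the response itself, and the gut epithelium is known to keep a low level of this programme without infection.

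Library totals ranged from 727610 to 12146933 counts in SF_HFD and from 499774 to 12841275 in SF_CD. A total under 1000000 was found in SF_HFD library 5 and in SF_CD libraries 1 and 5, where 1 count equals 1.26, 2.25 and 1.95 CPM (counts per 1000000 counts of a library, TMM-normalised). Ribosomal RNA, here nuclear-encoded and mitochondrial ribosomal RNA together, took 22.0% of SF_CD library 1 and 14.5% of SF_CD library 5, against at most 7.19% of the others. Epcam, the defining surface protein of epithelium, was at 258 to 652 CPM in SF_HFD and 206 to 327 CPM in SF_CD. Of 14 epithelial markers 13 were tested and none was called. The log2 fold change was positive for 11 of them and negative for 2, Elf3 and Vil1, with a median of 0.69, against 0.021 for all genes. Elf3 averaged 153 CPM in SF_HFD and 268 CPM in SF_CD. Of 36 leukocyte markers, 8 passed the count filter and were tested, and 7 were at 0 in all 10 libraries, among them Cd3e, Cd4, Cd8a and Ms4a1. Their summed level was 78.6 to 162 CPM in SF_HFD and 63.4 to 144 CPM in SF_CD, a sum that hides differences between markers. Of the 8 tested, 5 had a positive log2 fold change and 3 a negative one. Fcer1g, a signalling chain of myeloid and mast cells, was lower in SF_HFD, with 1 count against 49 in SF_CD (edgeR adjusted p = 0.0083). Tyrobp, C1qa and C1qb had 0 counts in SF_HFD, against 28, 21 and 31 in SF_CD. Other markers went the opposite way without being called. S100a8 averaged 12.2 CPM in SF_HFD, against 3.77 CPM in SF_CD, and Cd14 averaged 51.5 CPM, against 29.2 CPM. Cd52 and Trac also averaged higher in SF_HFD. Lyz2 averaged 4.40 CPM in SF_HFD, against 34.4 CPM in SF_CD, and Cd53 averaged 27.2 CPM in SF_HFD, against 6.11 CPM in SF_CD, with edgeR adjusted p-values of 0.076 for Lyz2 and 0.219 for Cd53. The 16 fibroblast and smooth muscle markers summed to 249.7 to 394 CPM in SF_HFD and 16.5 to 109 CPM in SF_CD, with 4 of the 12 tested ones higher in SF_HFD (Postn, Acta2, Actg2 and Myl9). The part of epithelial, leukocyte and stromal markers in the values below was not tested. In such bulk RNA, fewer cells that express a gene and less of its RNA per cell cannot be told apart. In the 8 further libraries of the study, on diets with serine, the rows labelled Actb, Gapdh, Eef1a1 and Epcam held 0 counts. The row labels therefore do not name the genes of those columns, and they were not used here.

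The interferon programme was transcribed at a low to moderate level in both diets, with wide differences between libraries of the same diet. Of the 36 genes, 28 passed the count filter and were tested. None was called in SF_HFD against SF_CD when edgeR p-values were adjusted over 11780 genes (quasi-likelihood, Benjamini-Hochberg, threshold 0.05). Over all genes tested, 0.323% were called, 0.153% higher and 0.170% lower. At an unadjusted p under 0.05 there were 3 of the 28 genes (10.7%), Ifih1, Gbp7 and Lgals3bp, against 11.6% of all genes. DESeq2 and limma-voom each called 1 gene of the set, Ifih1. Over all genes they called 298 and 173, against 38 with edgeR. The median log2 fold change was -0.34 for the 28 genes and 0.021 for all genes, and 19 of the 28 (67.9%) were below 0, against 48.6% of all genes. Without the 3 libraries under 1000000 counts the median was -0.069, with 16 of the 28 below 0. The groups did not overlap for 1 gene (3.57%), against 3.65% of all genes.

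These libraries left room for sizeable differences. The 95% interval of the log2 fold change lay within -1 to 1, a 2-fold change either way, for 1 of the 28 genes (Parp9) and for 13.3% of all genes. The median standard error was 0.60 for the 28 genes and 0.49 for all genes.

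**Figure D1:**
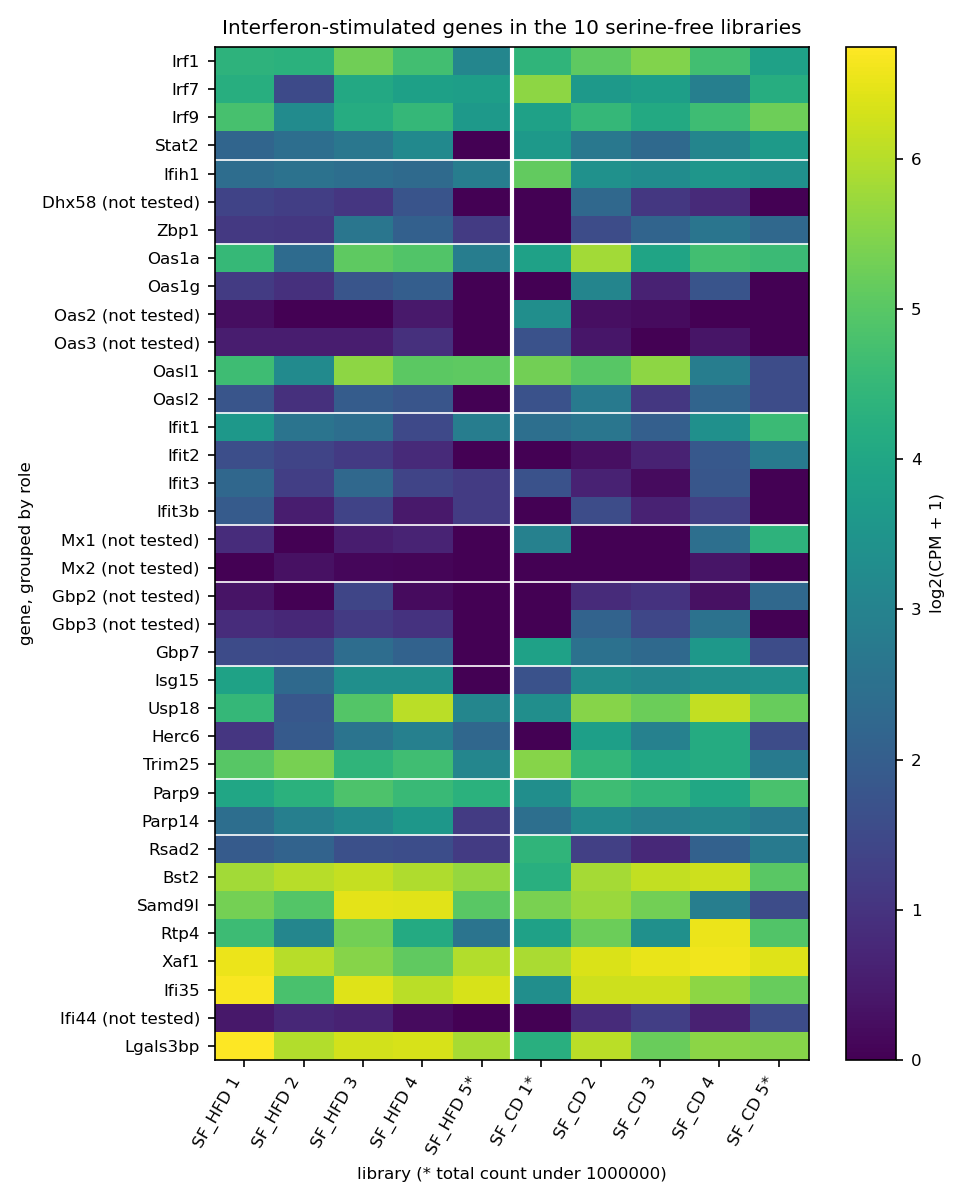
Level of the 36 genes as log2(CPM + 1) by colour, with genes in rows by role and libraries in columns, the 5 SF_HFD libraries left and the 5 SF_CD libraries right of the white line. Bst2, Xaf1, Ifi35 and Lgals3bp are bright across most libraries, whereas Mx2, Oas2 and Oas3 are dark in nearly all of them.

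**Figure D2:**
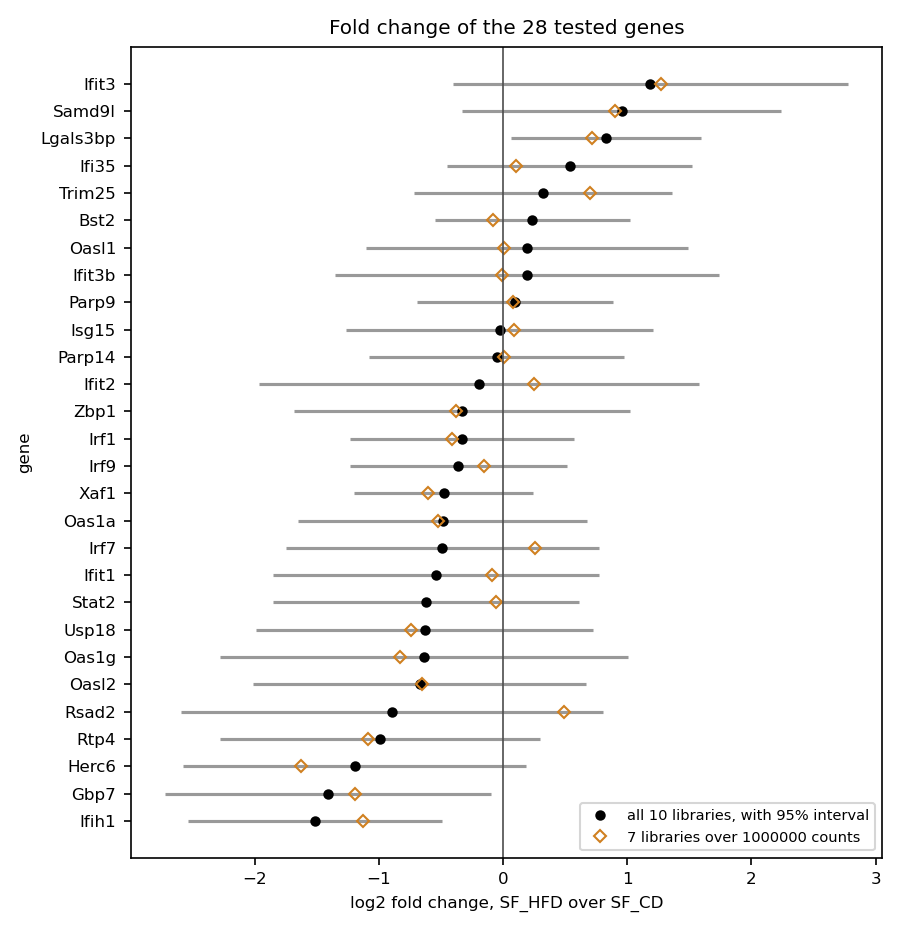
Log2 fold change of SF_HFD over SF_CD for the 28 tested genes (black points, lines are 95% intervals) and the same without the 3 libraries under 1000000 counts (open diamonds). The intervals of Ifih1 and Gbp7 lie below 0 and that of Lgals3bp lies above it, and no adjusted p was under 0.05.

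Ranked per length, as the mean CPM per kilobase of annotated exon, Bst2 stood first at 60.7. It was followed by Ifi35 at 34.6, Lgals3bp at 20.8, Xaf1 at 15.03, Rtp4 at 12.77 and Oas1a at 12.0. Isg15, often used as a reporter of the whole programme, ranked 9 at 9.78. Stat2 and Ifih1 were at 1.03 and 1.18, and the lowest were Oas3 at 0.0731 and Mx2 at 0.0194. Neighbours in this order were not tested against each other. All 36 genes together made up 0.0449% to 0.0697% of the counts in SF_HFD libraries and 0.0414% to 0.0672% in SF_CD libraries.

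The transcription factors of the response were all measured, and none passed the test. Irf1, a factor induced by interferon gamma (mm10 chr11:53770014-53778374), was at 19.4, 18.7, 37.6, 25.2 and 7.58 CPM in SF_HFD libraries 1 to 5. In SF_CD libraries 1 to 5 it was at 20.3, 32.8, 43.3, 24.9 and 13.6 CPM. The groups overlapped and library 5 was the lowest of each, and the fold change on the log2 scale was -0.33 ± 0.43 (SE, edgeR adjusted p = 0.821). Irf7, the main amplifier of the type I response, averaged 12.2 ± 6.15 CPM in SF_HFD and 19.1 ± 16.2 CPM in SF_CD (± is the SD, 5 libraries each). Its highest value was 47.3 CPM in SF_CD library 1 and its lowest 1.84 CPM in SF_HFD library 2. Its log2 fold change was -0.49, and 0.10 without SF_CD library 1. Irf9 and Stat2, which encode parts of the ISRE-binding complex, had log2 fold changes of -0.36 ± 0.41 and -0.62 ± 0.58. Stat2 was at 0 to 8.15 CPM in SF_HFD and 3.92 to 11.7 CPM in SF_CD.

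Among the sensors of foreign nucleic acid, Ifih1 was the only one of the 28 genes whose groups did not overlap. Ifih1 encodes MDA5, which detects long double-stranded RNA in the cytosol (chr2:62595798-62646255). It was at 4.34, 4.84, 4.44, 4.08 and 6.32 CPM in SF_HFD and at 33.8, 9.59, 8.69, 10.6 and 9.74 CPM in SF_CD. Every SF_HFD library was below every SF_CD library. Library 5 of each group rested on 5 counts. Its 95% Poisson intervals, 2.05 to 14.7 CPM in SF_HFD and 3.16 to 22.7 CPM in SF_CD, overlapped. The means were 4.80 ± 0.889 CPM in SF_HFD and 14.5 ± 10.8 CPM in SF_CD (± is the SD, 5 libraries each), and the fold change on the log2 scale was -1.51 ± 0.48 (edgeR adjusted p = 0.228). The SF_CD mean rested in part on SF_CD library 1, whose 33.8 CPM came from 15 counts (95% Poisson interval 18.9 to 55.8 CPM). Without that library the log2 fold change was -1.05 (edgeR adjusted p = 0.255), and without the 3 libraries under 1000000 counts it was -1.13 (0.164). DESeq2 gave -1.59 with an adjusted p of 0.0433 and limma-voom -1.12 with 0.0491. These 2 methods called 298 and 173 of all genes, against 38 with edgeR. Over its 17 alternatives the adjusted p ranged from 0.0433 to 0.625.

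Zbp1, a sensor of Z-form nucleic acid that can start necroptosis, was at 1.15 to 5.27 CPM in SF_HFD and 0 to 5.16 CPM in SF_CD, with a log2 fold change of -0.33 ± 0.64. Dhx58, which encodes LGP2, a helper of MDA5, did not pass the count filter and was not tested. It had 66 counts in SF_HFD and 53 in SF_CD.

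The active OAS enzymes make short oligoadenylates that switch on the nuclease RNase L, which not every member of the family does. Of the 6 members 4 were tested, 1 with a positive and 3 with a negative log2 fold change, and none passed the test. Oasl1, which in mouse restrains Irf7 translation, had groups that spanned almost the same range. It was at 24.2, 8.30, 47.5, 32.1 and 32.8 CPM in SF_HFD and at 38.3, 31.1, 47.1, 6.22 and 1.95 CPM in SF_CD (log2 fold change 0.20 ± 0.61, edgeR adjusted p = 0.939). The low values of SF_CD libraries 4 and 5 came from 82 and 1 counts. The log2 fold change was -0.094 without SF_CD library 4, -0.072 without SF_CD library 5 and -0.065 without SF_HFD library 3.

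Oas1a and Oas1g are neighbouring copies on chromosome 5, and 68.8% of the 31-base words in the Oas1a transcripts also occur in other genes, chiefly Oas1g. Their split is therefore uncertain, and they were also summed. The sum was 23.4, 5.07, 34.8, 32.2 and 6.32 CPM in SF_HFD and 13.5, 62.8, 14.99, 27.5 and 23.4 CPM in SF_CD (p = 0.516 in a two-sided exact permutation test). The extremes were SF_CD library 2 and SF_HFD library 2. Oasl2 was at 0 to 2.87 CPM in SF_HFD and 1.12 to 5.73 CPM in SF_CD (log2 fold change -0.67 ± 0.63). Oas2 and Oas3 did not pass the count filter and were not tested. Oas2 had 2, 0, 0, 5 and 0 counts in SF_HFD libraries 1 to 5 and 4, 2, 1, 0 and 0 counts in SF_CD libraries 1 to 5. The 4 counts in SF_CD library 1 equal 9.02 CPM, 90.8% of its CPM summed over the 10 libraries. Oas3 had 24 counts in SF_HFD and 8 in SF_CD.

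The IFIT proteins bind foreign RNA ends, and all 4 members were measured at low levels. Ifit3 had the highest log2 fold change of the 28 genes, 1.19 ± 0.75 (edgeR adjusted p = 0.564). It was at 3.80, 1.38, 3.88, 1.58 and 1.26 CPM in SF_HFD and at 2.25, 0.551, 0.140, 2.50 and 0 CPM in SF_CD, so the groups overlapped. The log2 fold change was 2.45 without SF_CD library 4, 2.13 with limma-voom and 0.80 without SF_CD library 3. Ifit3 shares 61.8% of its 31-base words with other genes, chiefly Ifit3b, and its count is uncertain. Summed, the pair was at 6.61, 1.84, 5.46, 1.96 and 2.53 CPM in SF_HFD and at 2.25, 2.53, 0.701, 3.95 and 0 CPM in SF_CD (p = 0.206 in a two-sided exact permutation test). Ifit1 averaged 5.75 ± 3.43 CPM in SF_HFD and 9.15 ± 8.30 CPM in SF_CD (± is the SD, 5 libraries each), and its highest value was 23.4 CPM in SF_CD library 5. Ifit2 had a log2 fold change of -0.19 ± 0.84 and Ifit3b one of 0.19 ± 0.73.

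The Mx GTPases, which trap viral nucleoproteins, did not pass the count filter and were not tested. Mx1 had 9, 0, 5, 8 and 0 counts in SF_HFD libraries 1 to 5 and 3, 0, 0, 59 and 10 counts in SF_CD libraries 1 to 5. These equal at most 0.815 CPM in SF_HFD, and 6.76, 4.48 and 19.5 CPM in SF_CD libraries 1, 4 and 5. The gene was thus seen in part of the SF_CD libraries and listed at 0 in the other 2, both of which are deep. Mx2 had 3 counts in SF_HFD and 4 in SF_CD.

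The guanylate-binding proteins coat intracellular microbes and respond mainly to interferon gamma. Gbp7 (chr3:142530342-142550149) was the only member that passed the count filter, at 1.90, 1.84, 4.35, 3.32 and 0 CPM in SF_HFD and 13.5, 4.74, 3.92, 11.1 and 1.95 CPM in SF_CD. The groups overlapped, and the log2 fold change was -1.41 ± 0.62 (95% interval -2.72 to -0.096, edgeR adjusted p = 0.387). Of its 31-base words, 14.7% occur in other genes. Gbp3 had 38 counts in SF_HFD and 106 in SF_CD, 63 of them in SF_CD library 4, and Gbp2 had 23 and 19. In the 7 libraries over 1000000 counts, where 30 of the 36 genes were tested, Gbp3 was at 0.692 to 1.20 CPM in SF_HFD and 1.68 to 4.76 CPM in SF_CD. It was 1 of 3 genes whose groups did not overlap there, with Ifih1 and Herc6. With 4 libraries against 3, this held for 18.7% of all genes.

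Isg15 and the enzymes around it were measured in full. Isg15, a ubiquitin-like protein that is joined to other proteins (chr4:156199424-156200818), was at 13.7, 3.92, 9.34, 9.28 and 0 CPM in SF_HFD and at 2.25, 8.93, 7.71, 9.11 and 9.74 CPM in SF_CD. Apart from the shallow libraries it stayed between 3.92 and 13.7 CPM, and the fold change on the log2 scale was -0.025 ± 0.58 (95% interval -1.26 to 1.21). Usp18, which removes Isg15 and damps the interferon receptor, was at 21.5, 2.53, 29.5, 65.2 and 7.58 CPM in SF_HFD and at 9.02, 44.8, 36.7, 68.8 and 35.05 CPM in SF_CD. Its deep libraries differed by up to 27.2-fold, between SF_CD library 4 and SF_HFD library 2, and its log2 fold change was -0.63 ± 0.64 (edgeR adjusted p = 0.754).

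Herc6, the main ligase for Isg15 in mouse, was at 1.09, 2.77, 4.99, 6.72 and 3.79 CPM in SF_HFD and at 0, 13.0, 6.87, 16.6 and 1.95 CPM in SF_CD. Its log2 fold change was -1.19 ± 0.65 (edgeR adjusted p = 0.502), and -1.63 over the 7 deeper libraries alone (edgeR adjusted p = 0.223). Among its 31-base words, 13.8% occur in other genes, as do 12.81% of those of Isg15, 12.5% of those of Rtp4 and 10.5% of those of Ifit1. Trim25, a ubiquitin ligase that acts on the RNA sensor RIG-I, was at 30.7, 39.9, 20.4, 24.6 and 7.58 CPM in SF_HFD and at 45.1, 21.3, 14.99, 16.8 and 5.84 CPM in SF_CD. It overlapped widely between diets (log2 fold change 0.32 ± 0.49, edgeR adjusted p = 0.853). The ADP-ribosyltransferase genes Parp9 and Parp14 had log2 fold changes of 0.097 ± 0.37 and -0.050 ± 0.48. Parp9 averaged 20.7 ± 5.01 CPM in SF_HFD and 19.3 ± 7.25 CPM in SF_CD (± is the SD, 5 libraries each), and its interval of -0.69 to 0.89 was the one within a 2-fold change.

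The other antiviral genes included the most abundant of the set. Bst2, or tetherin, which holds budding virions on the cell surface (chr8:71534255-71537456), was at 54.8, 63.8, 70.6, 60.4 and 50.5 CPM in SF_HFD and at 18.0, 56.0, 68.4, 74.1 and 31.2 CPM in SF_CD. Over the 7 libraries above 1000000 counts it had the smallest range of the 28 genes, 1.35-fold, and its low values were in SF_CD libraries 1 and 5 (log2 fold change 0.24 ± 0.37, edgeR adjusted p = 0.859). Xaf1, a partner of apoptosis inhibitors, was at 92.3, 63.6, 44.7, 33.3 and 61.9 CPM in SF_HFD and at 58.6, 80.7, 90.5, 95.2 and 83.7 CPM in SF_CD. The groups overlapped through SF_HFD library 1 and SF_CD library 1 (log2 fold change -0.48 ± 0.34, edgeR adjusted p = 0.622).

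Ifi35, a protein that pairs with Nmi, was at 101.8, 27.0, 84.9, 64.8 and 79.6 CPM in SF_HFD and at 9.02, 73.4, 73.4, 47.7 and 35.05 CPM in SF_CD. Its log2 fold change was 0.54 ± 0.47 (edgeR adjusted p = 0.705), and 0.11 without the 3 libraries under 1000000 counts. Of its 31-base words, 12.83% occur in a gene on the opposite strand. Lgals3bp, a secreted glycoprotein that binds galectin-3 (chr11:118392751-118402092), was at 106, 61.5, 77.3, 79.7 and 56.8 CPM in SF_HFD and at 18.0, 65.3, 36.2, 46.8 and 44.8 CPM in SF_CD. The groups overlapped only through SF_CD library 2, which was above SF_HFD libraries 2 and 5. The means were 76.3 ± 19.4 CPM in SF_HFD and 42.2 ± 17.2 CPM in SF_CD (± is the SD, 5 libraries each), and the fold change on the log2 scale was 0.83 ± 0.36 (95% interval 0.068 to 1.59, edgeR adjusted p = 0.381).

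Samd9l, a restriction factor that slows translation and growth (chr6:3372257-3399572), was at 39.3, 30.0, 87.6, 85.1 and 31.6 CPM in SF_HFD and at 40.6, 52.2, 38.5, 6.45 and 1.95 CPM in SF_CD. The SF_CD libraries 4 and 5 stood apart from the other 8, which were at 30.0 CPM or more. The log2 fold change was 0.95 ± 0.60 (edgeR adjusted p = 0.564). Rtp4, a chaperone of membrane receptors, was at 23.5, 7.60, 38.5, 16.5 and 5.05 CPM in SF_HFD and at 13.5, 36.3, 9.39, 92.7 and 29.2 CPM in SF_CD. Its highest value, in SF_CD library 4, came from 1221 counts. The log2 fold change was -0.99 ± 0.61 (edgeR adjusted p = 0.548), -0.26 without SF_CD library 4 and -0.18 with limma-voom. Rsad2, or viperin, which makes a nucleotide that stops viral polymerases, was at 2.81, 3.46, 2.13, 2.04 and 1.26 CPM in SF_HFD and at 20.3, 1.43, 0.701, 3.26 and 5.84 CPM in SF_CD. Its log2 fold change was -0.89 ± 0.80 (edgeR adjusted p = 0.714), and 0.11 without SF_CD library 1, where 20.3 CPM came from 9 counts. Ifi44 had 15 counts in SF_HFD and 25 in SF_CD and was not tested.

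**Figure D3:**
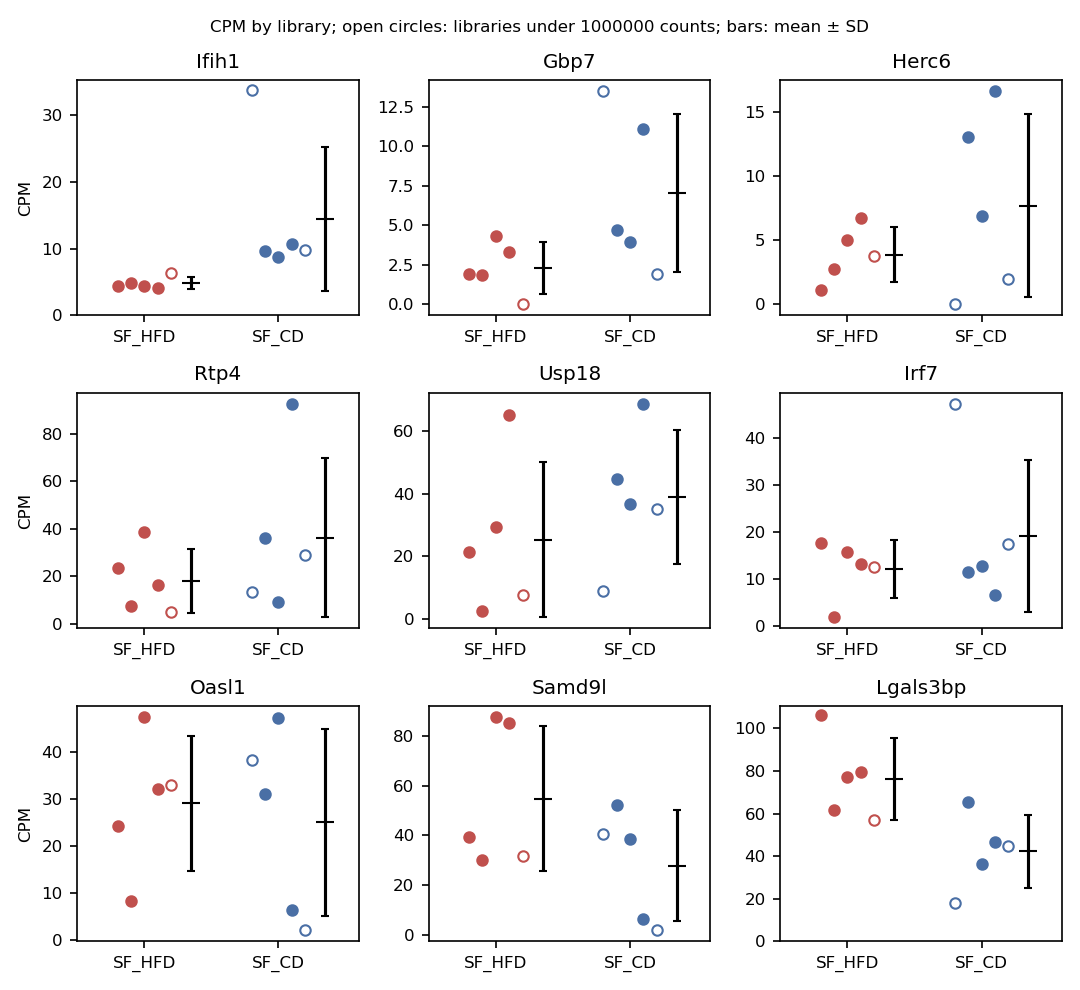
CPM of 9 genes in each library (points, in library order 1 to 5), SF_HFD left and SF_CD right, with the mean and SD of each group beside the points and open circles for the 3 libraries under 1000000 counts. Ifih1 is the 1 panel whose groups do not overlap, and Oasl1 and Samd9l are low in SF_CD libraries 4 and 5.

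The library that held the highest or lowest value differed from gene to gene. Over the 7 libraries above 1000000 counts, both diets together, the ratio of the highest to the lowest had a median of 5.47 for the 28 genes. For all tested genes with counts in each of the 7 libraries the median was 2.84, without matching for level. Of the 28 genes, 26 had a ratio over 2 and 8 a ratio over 10. SF_HFD library 2 was the lowest of the 7 for 11 genes, among them Irf7, Usp18, Oas1a and Ifi35, and the highest for 2. This library had 3648783 counts and 7.19% ribosomal RNA, the most of the 7, and their part in the low values was not tested. SF_CD library 4 was the highest for 8 genes, among them Rtp4, Usp18 and Herc6, and the lowest for 2, Oasl1 and Samd9l. The summed level of the 36 genes was 656, 399, 698, 637 and 413 CPM in SF_HFD libraries 1 to 5 and 467, 691, 576, 655 and 495 CPM in SF_CD libraries 1 to 5. The 3 libraries under 1000000 counts and SF_HFD library 2 had the lowest sums.

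The promoter windows of the genes were searched for the ISRE core (GAAA, any 2 bases, GAAA) and the GAS core TTCNNNGAA on both strands. The windows ran from 250 bases before to 50 bases after the annotated start (RefSeq, GRCm38.p6), and 27 of the 36 genes were in the table. An ISRE core was found for 14 of these 27 genes (51.9%), against 3.99% of 27025 genes in the table. A GAS core was found for 6 of the 27 (22.2%), against 9.55% of all. A match describes the letters only. Positions are counted from the gene start, negative before it. Isg15 carried 3 overlapping ISRE cores from -78 to -57, Bst2 had 2 overlapping ones from -130 to -115 and Ifit1 had 2 separate ones at -104 and -85. The core of Ifih1 lay at 32 to 41, behind the start. The GAS match of Bst2 at -136 overlapped its first ISRE core. Oasl1, Samd9l, Xaf1, Lgals3bp, Trim25 and Herc6 had neither core in this window.

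The 4 windows printed here show an ISRE core in 4 genes. They are the gene with the smallest range over the 7 deeper libraries, the most used reporter, the IFIT gene of highest mean CPM and the gene whose diets did not overlap. The windows run 5′ to 3′ along the gene, with the ISRE cores in capitals (in Ifit1 the core is on the other strand and reads TTTC, any 2 bases, TTTC). Bst2 is chr8:71537423-71537722 on the minus strand, Isg15 is chr4:156200769-156201068 on the minus strand, Ifit1 is chr19:34640639-34640938 on the plus strand and Ifih1 is chr2:62646206-62646505 on the minus strand.
Bst2: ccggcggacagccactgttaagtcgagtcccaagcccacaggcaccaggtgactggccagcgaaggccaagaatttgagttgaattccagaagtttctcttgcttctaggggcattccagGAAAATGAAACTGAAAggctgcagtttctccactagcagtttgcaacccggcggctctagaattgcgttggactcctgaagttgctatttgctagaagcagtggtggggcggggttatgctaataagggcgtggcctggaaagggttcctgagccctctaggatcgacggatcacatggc
Isg15: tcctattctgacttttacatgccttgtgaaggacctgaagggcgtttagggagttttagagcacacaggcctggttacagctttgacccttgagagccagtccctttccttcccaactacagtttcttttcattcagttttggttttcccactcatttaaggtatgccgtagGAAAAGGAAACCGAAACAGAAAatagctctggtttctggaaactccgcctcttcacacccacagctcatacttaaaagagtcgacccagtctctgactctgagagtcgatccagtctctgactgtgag
Ifit1: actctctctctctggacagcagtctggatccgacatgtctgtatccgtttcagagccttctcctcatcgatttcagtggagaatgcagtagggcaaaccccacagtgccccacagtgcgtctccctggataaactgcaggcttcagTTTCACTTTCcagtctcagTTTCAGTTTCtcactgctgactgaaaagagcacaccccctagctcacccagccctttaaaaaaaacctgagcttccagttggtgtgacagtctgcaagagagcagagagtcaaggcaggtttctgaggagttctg
Ifih1: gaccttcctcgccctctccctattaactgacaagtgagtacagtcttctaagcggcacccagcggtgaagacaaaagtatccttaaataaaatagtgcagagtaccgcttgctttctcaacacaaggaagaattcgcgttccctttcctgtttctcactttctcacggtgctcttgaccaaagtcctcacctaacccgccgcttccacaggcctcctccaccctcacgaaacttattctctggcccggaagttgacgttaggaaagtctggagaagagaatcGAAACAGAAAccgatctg
Bst2 and Isg15, both with overlapping cores, were at 60.7 and 9.78 CPM per kilobase, and Xaf1, with no core in its window, was at 15.03. The relation of cores to levels was not tested.

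**Figure D4:**
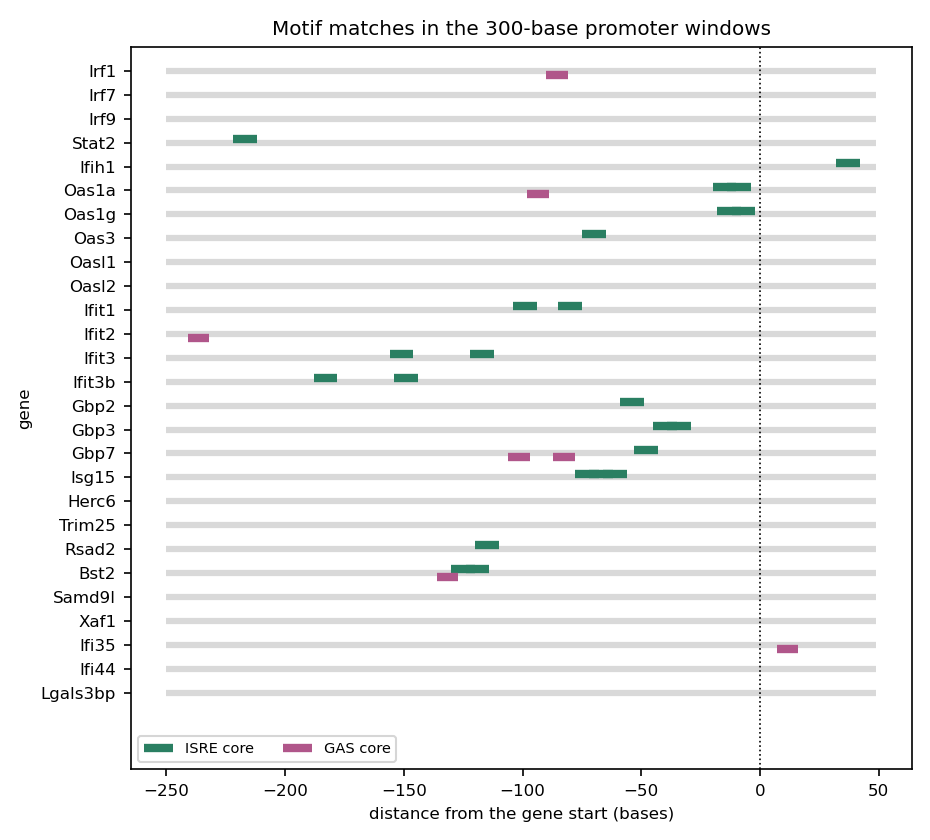
Matches of the ISRE core (green) and the GAS core (purple) in the 300-base promoter windows of the 27 genes in the table, by distance from the gene start in bases, with the windows of a gene that has more than 1 start drawn on 1 line. All ISRE matches lie before the start except that of Ifih1.

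The interferon ligands themselves were nearly silent. Of 21 ligand genes, 18 were at 0 in all 10 libraries. The other 3 were Ifnz with 6 counts in SF_HFD and 3 in SF_CD, Ifnb1 with 2 and 1, and Ifnl3 with 0 and 1. Such counts limit the level in the RNA and say nothing of interferon added or present in the medium.

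Receptors and signal carriers were present without a change past the threshold. Of 15 genes in this list 13 were tested, with no call in either direction and a median log2 fold change of -0.17. By mean CPM over the 10 libraries, Pias1, an inhibitor of STAT factors, Jak1 and Stat3 came first. Jak1 and Stat3 were highest in SF_CD library 1, at 124 and 126 CPM, which raises their means. Pias1 was at 48.2, 19.6, 38.7, 41.4 and 49.3 CPM in SF_HFD and at 74.4, 68.1, 73.7, 66.1 and 85.7 CPM in SF_CD, with groups that did not overlap (log2 fold change -0.90 ± 0.33, edgeR adjusted p = 0.308). Mean CPM of Jak1 was 45.1 ± 12.7 in SF_HFD and 53.1 ± 40.9 in SF_CD, and that of Stat3 was 35.5 ± 14.7 in SF_HFD and 54.3 ± 44.1 in SF_CD (± is the SD, 5 libraries each).

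In the sensing list, 17 of 20 genes were tested and none was called, with a median of 0.13. Samhd1, which degrades nucleotides, averaged 73.7 ± 10.8 CPM in SF_HFD and 80.2 ± 23.3 CPM in SF_CD. Sting1, the adaptor of cytosolic DNA sensing, averaged 57.2 ± 7.01 CPM in SF_HFD, against 86.9 ± 47.4 CPM in SF_CD. Aim2, a sensor of DNA that starts inflammasomes, averaged 32.1 ± 6.003 CPM in SF_HFD, against 43.5 ± 21.1 CPM in SF_CD (± is the SD, 5 libraries each).

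A further list of 40 interferon-induced genes had 27 tested and none called, with a median log2 fold change of -0.097. Its most abundant genes were the membrane proteins Ifitm3, Ifitm2 and Ifitm1, which block virus entry. Ifitm3 averaged 751 ± 327 CPM in SF_HFD, against 783 ± 435 CPM in SF_CD. Ifitm2 averaged 632 ± 284 CPM in SF_HFD, against 590.4 ± 289.6 CPM in SF_CD (± is the SD, 5 libraries each). Ifitm1 was at 22.6 to 312 CPM in SF_HFD and 83.4 to 591 CPM in SF_CD (log2 fold change -1.22 ± 0.59, edgeR adjusted p = 0.440).

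Of 36 interferon gamma-responsive genes 22 were tested, with a median log2 fold change of 0.28, and 1 was higher in SF_HFD and none lower, against 0.153% higher and 0.170% lower over all genes. This was Ido1, which degrades tryptophan. It was at 13.8, 4.38, 23.03, 269.5 and 94.7 CPM in SF_HFD and at 0, 2.31, 0.140, 0 and 0 CPM in SF_CD (log2 fold change 6.74 ± 1.34, edgeR adjusted p = 0.0477). Ido1 had been called earlier in these data, so its call here is not a result about the list.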

How the data were processed

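The authors deposited 1 table of estimated counts per gene as whole numbers, made with Salmon 1.3.0 on the build mm10, per the submitters' processing notes. The libraries were poly(A)-selected and strand-specific, per the labels' protocols. No annotation release or filter is named in the sources used here. Reads that fit several similar transcripts are divided by an estimate, so counts of near-identical genes are uncertain. Sharing was measured as the 31-base words of a gene's transcripts that occur in another gene of GENCODE M21, which matched 94.7% of the row identifiers. Columns were matched to samples by the library name in the descriptions.

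The test was edgeR 4.0.16 (R 4.3.3), quasi-likelihood and robust, with TMM normalization and the default filterByExpr filter (minimum count 10), on the 5 SF_HFD and 5 SF_CD libraries. The filter does not go by total count alone: Ifit2 was tested with 97 counts, whereas Gbp3 with 144 was not. P-values were adjusted by Benjamini-Hochberg over all genes tested, with a threshold of 0.05. The SE of a log2 fold change is its size over the square root of F. Deposited counts were normalised to CPM here. Poisson intervals cover counting error only. Other settings tried were normalization by RLE or upper quartile, dropping the filter, a stricter one (10 CPM in 5 libraries), DESeq2 1.42.0, limma-voom (limma 3.58.1) with sample quality weights, the replicate number as a block, each library left out and the 3 libraries under 1000000 counts left out together.

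The genes and lists were chosen with earlier results of these data known. Values in every library are given, by rule, for those of the 36 genes whose groups do not overlap, the 10 of highest mean CPM, the 5 highest and 5 lowest log2 fold changes, and genes with over 50% of their summed CPM in 1 library, and a few others were added after their values were seen.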

Additional observations from a re-analysis of the deposited data

Results flagged for a closer look

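Of 56 sets of 5 libraries (28 genes in each diet), 5 had a library far from the rest of its group. The rule was a Dixon ratio, the gap to the nearest library over the range of the group, above 0.71. Its nominal chance rate of about 1 in 20 sets assumes normal values of equal precision. CPM of libraries this unequal in depth do not meet that, so the number of flags cannot be judged against it. Of the 5, 4 were in SF_CD library 1, which had 499774 counts, 22.0% ribosomal RNA and 12.1% Malat1, a nuclear RNA, and the part of these in the values was not tested. In that library Irf7 was at 47.34 CPM from 21 counts (95% Poisson interval 29.3 to 72.4 CPM), Ifih1 at 33.81 CPM from 15 counts and Rsad2 at 20.29 CPM from 9 counts (9.28 to 38.5 CPM), each the highest of its group. Isg15 was at 2.254 CPM there from 1 count (0.0571 to 12.6 CPM), the lowest of its group. Oas1a was at 55.43 CPM in SF_CD library 2, the highest of its group, from 503 counts.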

How the results depend on the processing

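No gene of the set was called by edgeR under any of the other normalizations, filters or sets of libraries or with the replicate block, and DESeq2 and limma-voom called 1 each. Over all genes the count was 38, against 298 with DESeq2, 173 with limma-voom, 78 with no filter, 12 with the stricter filter and 22 with the replicate block, and 16 to 88 when 1 library was left out. It moved by over 1.5 times without SF_HFD library 2 (19), 4 (16) or 5 (23) and without SF_CD library 2 (88) or 4 (24). The sample titles number the replicates without saying that equal numbers pair samples. Correlations of same-numbered libraries ran from -0.21 to 0.14, and those of differently numbered ones from -0.26 to 0.19. Such correlations cannot settle whether the numbers pair samples, and the lower count with the block is not read as a weaker effect. The number of genes whose groups did not overlap was 1, against 0 with the stricter filter, 3 without the 3 libraries under 1000000 counts and 1 to 2 when 1 library was left out. The share over all genes was 3.65% with all 10 libraries and 18.7% with 4 libraries against 3. No such share is given for the other settings, and the genes tested differed, so the rise is not read as a result about the set. The stricter filter kept 14 genes of the set and removed Ifih1, so its 0 does not mean that the groups of Ifih1 overlapped.

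The median log2 fold change stayed below 0 in all 18 alternatives, from -0.52 to -0.050. The genes tested differed, with 14 under the stricter filter and 27 to 30 when 1 library was left out. These medians therefore do not all cover the same genes. The sign of 12 genes, none of them called, changed in some settings. With limma-voom the log2 fold change was 0.65 for Ifit2, -0.14 for Ifit3b, 0.24 for Irf7, 0.019 for Parp14, 0.52 for Rsad2 and 0.11 for Zbp1. With the block it was 0.11 for Ifit2, -0.17 for Ifit3b and 0.12 for Oas1g, and with no filter 0.022 for Isg15. Without the 3 libraries under 1000000 counts it was -0.083 for Bst2, 0.25 for Ifit2, -0.0065 for Ifit3b, 0.26 for Irf7, 0.091 for Isg15, 0.0083 for Parp14 and 0.49 for Rsad2. When 1 library was left out, the ranges were -0.65 to 0.21 for Ifit2, -0.40 to 0.63 for Ifit3b, -0.77 to 0.10 for Irf7, -0.34 to 0.21 for Isg15, -0.76 to 0.011 for Oas1a, -0.094 to 0.61 for Oasl1, -0.33 to 0.13 for Parp14, -0.043 to 0.20 for Parp9, -1.33 to 0.11 for Rsad2 and -0.83 to 0.0048 for Zbp1. With no change of sign, they were -1.34 to -0.33 for Usp18, 0.086 to 0.69 for Trim25 and -0.61 to -0.088 for Irf1.

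The count filter left 8 of the 36 genes untested, and in the shallow libraries a level under 2.25 CPM can be less than 1 count. The cause of the changes between settings was not tested.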

Other observations

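The SF_CD libraries 4 and 5, with 12841275 and 523601 counts, had the lowest Oasl1 and Samd9l of all 10 libraries. Oasl1 was at 6.22 and 1.95 CPM and Samd9l at 6.45 and 1.95 CPM in them, against 8.30 CPM or more for Oasl1 and 30.0 CPM or more for Samd9l in the other 8 libraries. The 82 and 85 counts in SF_CD library 4 give 95% Poisson intervals of 4.95 to 7.72 CPM and 5.15 to 7.98 CPM, whereas a single count in SF_CD library 5 gives intervals of up to 10.8 CPM. Mx1 was at 4.48 and 19.5 CPM in these libraries and at 0 in SF_CD libraries 2 and 3. These genes were chosen after their values were seen.

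Dtx3l, the partner protein of Parp9, was at 8.33 to 16.8 CPM in SF_HFD. In SF_CD libraries 1 and 5 it was at 96.9 and 75.9 CPM, and in the other 3 SF_CD libraries at 10.8 to 15.1 CPM. Parp9 was at 9.02 and 27.3 CPM in SF_CD libraries 1 and 5, within or below the range of the others. Those libraries had the most ribosomal RNA, 22.0% and 14.5%, and its part was not tested.

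Over the 4 lists of other interferon pathway genes, 79 were tested and the groups did not overlap for 4 (5.06%), Ido1, H2-K1, Irf2 and Pias1, against 3.65% of all genes. Ido1 had been called earlier in these data, so this count is not a result about the lists. H2-K1, a class I antigen-presenting molecule, was at 150.3, 169, 151, 217 and 164 CPM in SF_HFD and at 128, 118, 113, 105 and 89.6 CPM in SF_CD (log2 fold change 0.62, edgeR adjusted p = 0.415). Irf2, which competes with Irf1 for the same sites, was at 29.1, 24.2, 22.3, 27.2 and 13.9 CPM in SF_HFD and at 149, 33.1, 40.4, 29.2 and 44.8 CPM in SF_CD (log2 fold change -1.27, edgeR adjusted p = 0.302). Without the 3 libraries under 1000000 counts, SF_CD library 1 among them, its log2 fold change was -0.41.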
